A study of Mus musculus with 10 samples.

Results

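The sites described here are strong STAT5B binding sites of mouse mammary tissue at which no STAT5B peak was called once STAT5A was missing. They were chosen by the peak lists themselves: a site is a wild type STAT5B peak with a deposited score of at least 24.4, which overlapped a wild type STAT5A peak by at least 1 bp and overlapped no STAT5B peak of Stat5a-null tissue. Of the 6976 wild type STAT5B peaks, 1744 reached that score, 1719 of these lay at a STAT5A peak, and 369 of these had no Stat5a-null peak. The 369 are called lost sites below, which means only that no peak was called in Stat5a-null tissue. The other 1350 are called kept sites.

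The peaks come from chromatin immunoprecipitation followed by sequencing of mammary tissue taken on the day of parturition from mice of a mixed 129SV::FVB/N::C57BL/6 background. Wild type mice are labelled AABB and Stat5a-null mice BB, and the labels do not describe the null allele further. One library each was used for STAT5A in wild type, STAT5B in wild type and STAT5B in Stat5a-null tissue. The other 7 samples of the series, among them STAT5A in Stat5a-null tissue and the inputs, were not analysed here. With 1 library per group, no difference has a replicate check and no test between conditions can be made. The labels do not say how many animals went into a library. Whole tissue was used, so fewer epithelial cells and less STAT5B on DNA per cell cannot be told apart.

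STAT5A and STAT5B are encoded by neighbouring genes. Prolactin, acting through its receptor and the kinase JAK2, leads to their phosphorylation on tyrosine. The phosphorylated proteins pair up, enter the nucleus and bind palindromic DNA elements, and pairs of such dimers can join into tetramers on neighbouring elements. In the mammary gland they drive the growth and differentiation of the alveoli that make milk. STAT5A is the more abundant form there, and mice without Stat5a fail to lactate after their first pregnancy. No genome or gene annotation of the build of these peaks (mm9) was used here. For that reason sites are named by position only, no gene or binding element was assigned to them, and the tissue could not be checked against genes that mark mammary cells.

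The lost sites lay toward the lower end of the scores of the strong STAT5B sites. Their wild type STAT5B scores ran from 24.4 to 48.2, with a median of 28.4 and quartiles of 25.8 and 32.5. Kept sites ran from 24.4 to 124.2, with a median of 33. Every score in the STAT5B list was a multiple of 0.239 within rounding. Read as the value of 1 sequenced tag, this put the lost sites between 102 and 202 tags, against 39 tags for the weakest peak of the list. Since the score and the absence of a Stat5a-null peak chose these sites, the numbers describe them and support nothing further. Among all wild type STAT5B peaks, 65.2% had no Stat5a-null peak, and among strong ones at a STAT5A peak 21.5% had none.

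The limit of 24.4 cut through a continuous run of scores. Of the lost sites, 14 had exactly that score, and 20 further peaks that met every other condition had the next lower score of 24.1. In list order, the last sites inside were chr17:42750010-42750261, chr19:32919061-32919312 and chr19:45327043-45327294 (mm9), with STAT5A scores of 80.9, 93.3 and 69.7. The first such peaks outside were chr1:17533026-17533277, chr1:133324017-133324268 and chr1:172516407-172516658, with STAT5A scores of 99.1, 98.2 and 99.8. Sites of equal score are ties, so those named are no nearer the limit than the rest. The 14 lost sites at 24.4 had STAT5A scores from 69.7 to 114.6. Kept sites stood at the same scores. Chromosome 17 from 7870838 to 7871089 had a STAT5B score of 24.4 and a Stat5a-null score of 12.6. Just outside the limit, chromosome 1 from 181066706 to 181066957 had scores of 24.1 with STAT5A present and 14.5 without it.

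The share of strong sites that were lost was lower at higher wild type STAT5B scores. Both measures belong to the choice of the sites, so this is a description. It was 37.3% (94 of 252 sites, exact Clopper-Pearson 95% interval 31.3% to 43.6%) for scores from 24.4 to below 26. From 26 to below 36 it lay between 29.2% and 22.2% in 4 successive score bands whose intervals overlapped. For scores from 36 to below 40 it was 9.39% (17 of 181, 5.57% to 14.6%), and from 40 to below 50 it was 9.17% (22 of 240, 5.83% to 13.5%). At 50 and above 0 of 136 sites were lost, which allows a share of up to 2.21% by the limit of 3 counts and up to 2.68% by the exact interval. These intervals cover counting error over sites only.

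**Figure D1:**
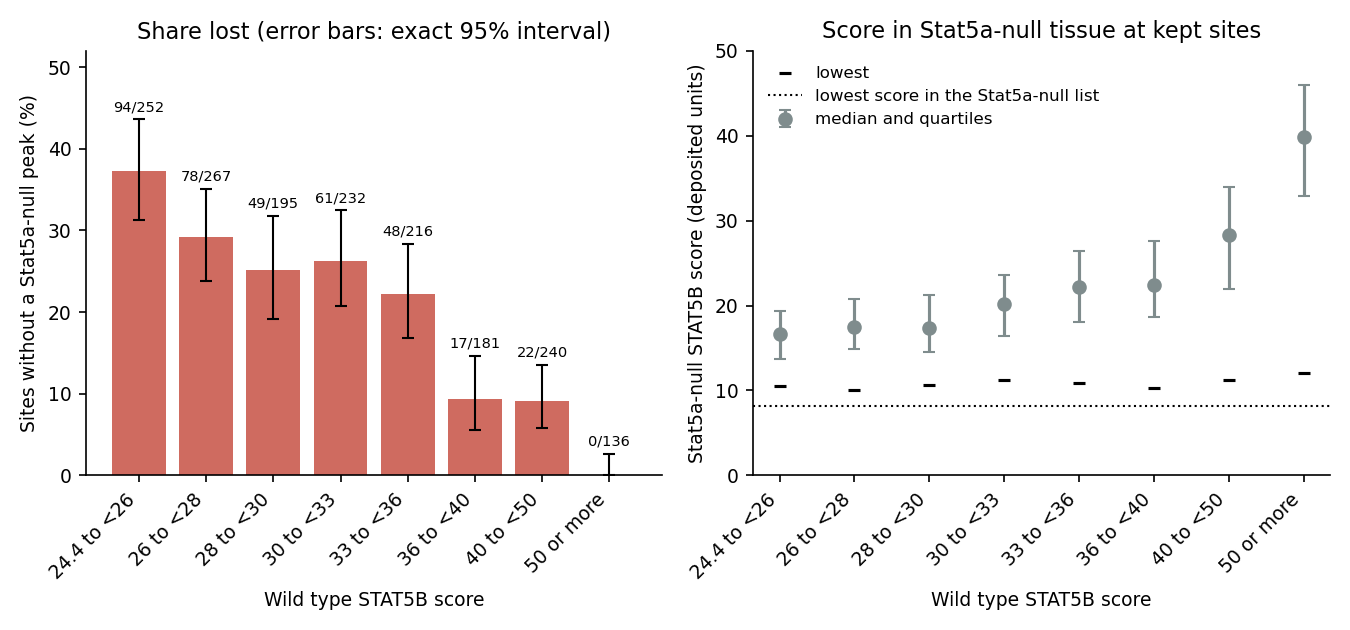
Left, share of strong STAT5B sites at STAT5A peaks that had no Stat5a-null STAT5B peak (vertical axis, percent), by wild type STAT5B score (horizontal axis); error bars are exact 95% intervals and the numbers are lost sites over all sites. Right, deposited STAT5B score in Stat5a-null tissue at the kept sites of the same score groups, as medians with quartiles and the lowest value, with the lowest score of the whole Stat5a-null list (8.2) as a dotted line. The share fell from 37.3% to 9.17% and then to 0 of 136, while the lowest kept score lay between 10.1 and 12 in all 8 groups.

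Kept sites have a called Stat5a-null peak by definition, so their Stat5a-null scores are given as a description only and say nothing about the lost sites. At the kept sites with wild type scores from 24.4 to below 26 the Stat5a-null score had a median of 16.6, with quartiles of 13.7 and 19.4 and a lowest value of 10.5. At wild type scores from 40 to below 50 the median was 28.3, the quartiles were 21.9 and 33.9, and the lowest value was 11.2. The lowest score of any peak in the Stat5a-null list was 8.2, and 5% of its peaks scored under 11.6. The Stat5a-null signal at the lost sites themselves is not in the peak list, so how far below the calling limit it lay is unknown.

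The strongest lost site lay on chromosome 6 from 82522898 to 82523149, with a STAT5B score of 48.2 (202 tags) and rank 165 of 6976. It overlapped a STAT5A peak with a score of 168.3, whose centre was 1 bp away. The nearest Stat5a-null peak was 14.6 kb away and scored 12. The next was chromosome 15 from 25879122 to 25879373, at a STAT5B score of 48.0 and a STAT5A score of 154.2, with a Stat5a-null peak at 2.90 kb. Both sites thus had called STAT5B binding in Stat5a-null tissue within 15 kb, though not at the site itself.

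Of the 10 strongest lost sites, 3 were on chromosome 13. Chromosome 13 from 72059898 to 72060149 had a STAT5B score of 46.8 and a STAT5A score of 171.2, and no Stat5a-null peak within 542 kb. Chromosome 13 from 72857244 to 72857495 scored 46.3 for STAT5B and 171.9 for STAT5A. That site had a much stronger neighbour 3.56 kb away, which scored 65.7 in wild type and was kept, with a Stat5a-null score of 46.9. Chromosome 13 from 51953910 to 51954161 scored 46.1 for STAT5B and 177.3 for STAT5A, the highest STAT5A score of any lost site, at rank 131 of 26237.

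The remaining 5 of the 10 lay on 5 other chromosomes. Chromosome 8 from 81731694 to 81731945 scored 45.8 for STAT5B and 147.7 for STAT5A, and chromosome 1 from 40636975 to 40637226 scored 45.6 and 160.9. Chromosome 14 from 73165201 to 73165452 scored 45.1 and 147.9, and chromosome 3 from 56252580 to 56252831 scored 43.7 and 151.7. Chromosome 9 from 17073787 to 17074038 scored 43.5 and 164.5. That site was the most isolated of the 10, with no other STAT5B peak of either genotype within 1053 kb, while the nearest Stat5a-null peak was 10.8 kb from the chromosome 1 site, 12.4 kb from the chromosome 14 site, 16.4 kb from the chromosome 3 site and 105 kb from the chromosome 8 site.

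STAT5A occupancy at the lost sites was high. The STAT5A score was not used to choose the sites beyond the presence of a peak. It ran from 69.7 to 177.3 with a median of 110.8 (95% interval of the median over sites 108.7 to 115.2) and quartiles of 99.3 and 125.7. All STAT5A peaks had a median of 27.1 and an upper quartile of 49.3, so every lost site had a STAT5A peak above the upper quartile of the list. The lowest-ranked STAT5A peak at a lost site was number 3739 of 26237, and 350 of the 369 (94.9%) ranked in the highest decile. Among kept sites this was 1330 of 1350 (98.5%). Strong STAT5B peaks lay at strong STAT5A peaks in general, as the plot of both scores shows.

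**Figure D2:**
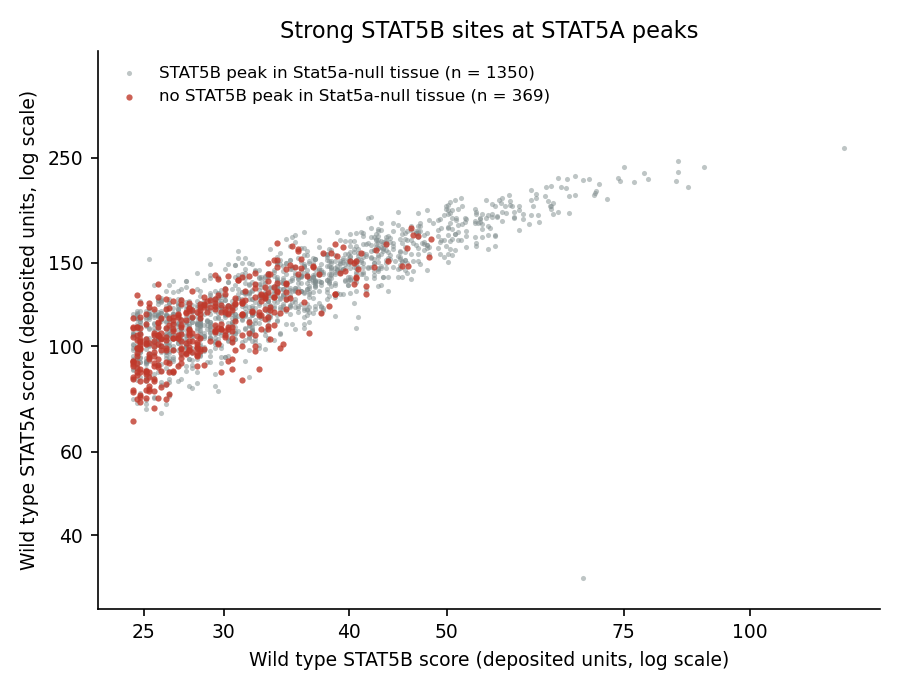
Deposited scores of each strong site in wild type tissue, STAT5B on the horizontal and STAT5A on the vertical axis (both log scales); red points are the 369 lost sites and grey points the 1350 kept sites. The lost sites lie inside the cloud of kept sites up to a STAT5B score of 48.2, and their STAT5A scores run from 69.7 to 177.3.

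The median STAT5A score of lost sites was below that of kept sites, and the gap was smaller at like STAT5B scores. The median STAT5A score was 110.8 at lost and 127.5 at kept sites (interval 125.6 to 130.0), a difference of -16.7. When kept sites were weighted to the STAT5B scores of the lost sites, their median was 114.7 and the difference -3.9. For STAT5B scores from 24.4 to below 26, lost sites had a median STAT5A score of 96.0 (quartiles 87.6 and 106) and kept sites 102 (94.4 and 114). In the next 4 bands the lost and kept medians were 105.1 and 108.2, 111 and 112.8, 117.8 and 120.7, and 130.4 and 131.3. From 36 to below 40 lost sites were the higher, at 142.9 against 141.3, and from 40 to below 50 the gap was largest, at 151.6 against 159.3. Lost sites had the lower median in 6 of the 7 score bands that held any, and the quartile ranges of single sites overlapped in each of them.

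The 5 lost sites with the weakest STAT5A binding all had STAT5B scores near the limit. They were chr19:45327043-45327294, chr1:44633542-44633793, chr6:86274754-86275005, chr8:114062202-114062453 and chr17:23791521-23791772, and their STAT5A scores were 69.7, 74.2, 76.4, 77.5 and 77.6. Their STAT5B scores lay between 24.4 and 26.3. Of the 5 with the strongest STAT5A binding, 4 were also among the 10 strongest for STAT5B. The fifth, chromosome 5 from 105583433 to 105583684, had a STAT5A score of 164.9 at a STAT5B score of only 33.9, a ratio of 4.86 in deposited units. The median ratio was 3.82 at lost and 3.78 at kept sites, or 3.92 at kept sites weighted to the STAT5B scores of the lost ones.

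The share of strong sites that were lost was lower at higher STAT5A scores. With the 1719 strong sites cut into 4 groups of equal size by STAT5A score, 36.5% (157 of 430, interval 32.0% to 41.3%) were lost in the lowest group. The share was 23.5% (101 of 430) in the next, 17.9% (77 of 430) in the one after and 7.93% (34 of 429, 5.55% to 10.9%) in the highest. STAT5B scores rose along with these groups, from a median of 26.5 to 44.7. Among sites with STAT5B scores below 30, 36.8% (31.8% to 42.0%) of those at or below their median STAT5A score were lost and 25.1% (20.6% to 29.9%) of those above it. The median STAT5B scores of these groups still differed, at 26 and 27.5. Among sites with STAT5B scores from 30 to 48.2, 22.2% (18.4% to 26.5%) at or below their median STAT5A score were lost and 12.4% (9.46% to 16.0%) above it, with median STAT5B scores of 33 and 39.9. The part of the STAT5B score in these gaps was not tested.

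At lost sites the centres of both wild type peaks were close together. The distance from the STAT5A to the STAT5B centre had a median of 16 bp, quartiles of 7 and 30 bp and a highest value of 89 bp. At kept sites the median was also 16 bp, with quartiles of 7 and 27 bp.

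Before weighting by STAT5B score, lost and kept sites had other wild type peaks nearby in similar shares. Another STAT5A peak lay within 12500 bp of 258 of the 369 lost sites, or 69.9% (65.0% to 74.6%), and of 70.7% (68.2% to 73.2%) of kept sites. Another wild type STAT5B peak lay within that distance of 47.7% (42.5% to 52.9%) of lost and 47.3% (44.6% to 49.96%) of kept sites. With kept sites weighted to the STAT5B scores of the lost sites these shares were 69.0% for STAT5A and 42.2% for STAT5B, the latter just under the interval of the lost sites. At 1, 5, 50 and 500 kb the weighted STAT5B shares were also below those of the lost sites but inside their intervals. Within 50 kb another STAT5A peak was found for 89.97% of lost and 92.0% of weighted kept sites. The median distance to the next wild type STAT5B peak was 14.2 kb (10.7 to 17.9 kb) at lost sites and 14.4 kb at kept sites. After weighting it was 19.9 kb at kept sites, above the interval of the lost sites.

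In Stat5a-null tissue a smaller share of lost than of kept sites had another STAT5B peak within 5 kb and within 500 kb, while at 12500 bp and 50 kb the gap was within counting error at like STAT5B score. Another Stat5a-null peak, beside any at the site itself, lay within 5 kb of 36 lost sites, or 9.76% (6.93% to 13.3%), against 16.7% (14.7% to 18.8%) of kept sites, and these intervals did not meet. With kept sites weighted to the STAT5B scores of the lost sites the latter share was 14.6%, above the interval of the lost sites. Within 12500 bp the shares were 20.9% (16.8% to 25.4%) and 26.1% (23.7% to 28.5%), which overlap, and within 50 kb they were 38.2% (33.2% to 43.4%) and 45.6% (42.9% to 48.3%), which overlap too. The weighted shares of kept sites at these distances were 22.9% and 43.36%, both inside the intervals of the lost sites. Within 1 kb the shares were 2.44% at lost sites and 2.45% at weighted kept sites. The median distance to such a peak was 114 kb (86.9 to 165 kb) at lost and 63.6 kb at kept sites, or 72.8 kb after weighting. Within 500 kb such a peak was found for 74.8% (70.0% to 79.1%) of lost and 82.8% of kept sites, or 82.3% after weighting. The sites share libraries and neighbours, so these intervals cover counting error only and do not test the genotypes.

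**Figure D3:**
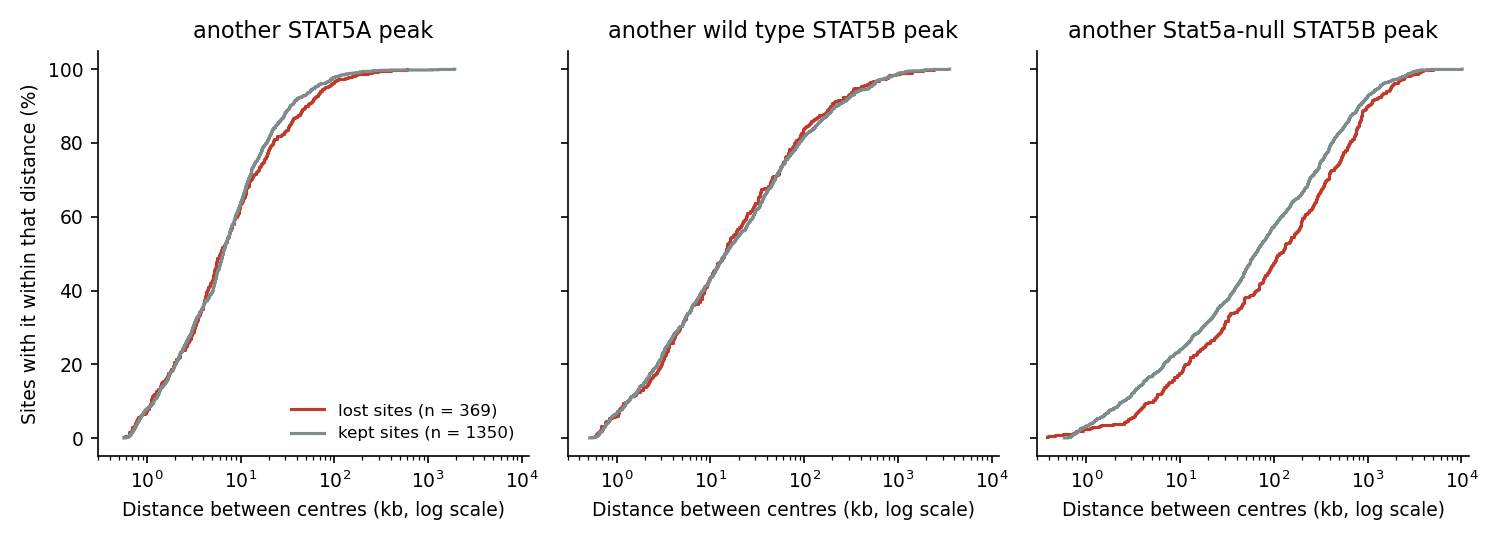
Share of sites (vertical axis, percent) with another peak within a given distance between centres (horizontal axis, kb, log scale), for 369 lost sites (red) and 1350 kept sites (grey). Left, STAT5A peaks; middle, wild type STAT5B peaks; right, Stat5a-null STAT5B peaks other than the one at the site. Kept sites are not weighted here. The curves run together for both wild type lists, while for Stat5a-null peaks the red curve lies lower over most of the range, with medians of 114 kb and 63.6 kb.

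The nearest wild type STAT5B neighbour was kept in a smaller share of lost than of kept sites. Of the 176 lost sites with another STAT5B peak within 12500 bp, 51 had a nearest neighbour that kept a Stat5a-null peak, or 29.0% (22.4% to 36.3%). Of the 638 kept sites with such a neighbour it was 281, or 44.0% (40.1% to 48.0%). Over all these neighbours the median wild type score was 20.9 beside lost and 20.2 beside kept sites. Among neighbours with scores of 20 or more, 50.5% (48 of 95, 40.1% to 60.9%) were kept beside lost sites and 69.6% (234 of 336, 64.4% to 74.5%) beside kept sites. Below a score of 20 it was 3.70% (3 of 81, 0.770% to 10.4%) and 15.6% (47 of 302, 11.7% to 20.2%). None of these pairs of intervals met. However, neighbour scores were not matched within the groups below 20 and of 20 or more. Pairs of neighbouring strong sites also enter from either side, and no test was made.

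Most lost sites were single, but the like count for kept sites was not made, so this does not set them apart. Of the 369 lost sites, 334 had no other lost site within 12500 bp, 32 lay in 16 pairs and 3 formed 1 group. Among the 1719 strong sites at STAT5A peaks, neighbouring sites lay within 12500 bp of each other in only 199 cases. In 122 of these both sites were kept, in 61 only 1 of them was lost and in 16 both were lost. Both were lost in 8.04% of these close pairs, and in 4.97%, 4.08% and 4.81% of neighbouring pairs up to 50 kb, up to 500 kb and farther apart, a difference that was not tested. The only group of 3 spanned chromosome 14 from 73165201 to 73176898 (11.7 kb), with STAT5B scores of 45.1, 30.8 and 25.8. Its STAT5A peaks scored 147.9, 123.0 and 105.5, no Stat5a-null peak lay inside it, and the nearest one was 1099 bp from the centre of one of its sites.

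Some lost sites lay beside a weaker site that was kept. At 35 lost sites (9.49%, 6.70% to 12.9%) a wild type STAT5B peak within 12500 bp had a lower score than the lost site and yet overlapped a Stat5a-null peak. Only 176 of the 369 had any other STAT5B peak within that distance. From the other side, 18 of the 1350 kept sites (1.33%) had a stronger wild type STAT5B peak without a Stat5a-null peak within 12500 bp. Pairs of strong sites enter both counts. These shares cannot be set against each other, since they count different kinds of neighbour. A stronger neighbour of a kept site is always above the score limit of strong sites, while weaker neighbours of lost sites may lie below it. The share of kept sites with a weaker kept neighbour was not counted. All 35 neighbours lay at STAT5A peaks, and 28 of these had a lower STAT5A score than the lost site. Taking the weakest such neighbour of each, the lost site scored a median of 1.26 times as high and at most 2.42 times as high. In 11 of the 35 the exact Poisson 95% intervals of the tag counts, which cover counting error only, did not overlap. In the other 24 the order of the scores was within counting error.

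The clearest of these neighbours lay on chromosome 15. The lost site there, from 25879122 to 25879373, had a STAT5B score of 48.0 (201 tags, 174 to 231). A peak 2885 bp away, from 25876237 to 25876488, scored 19.8 (83 tags, 66.1 to 103) and had a Stat5a-null peak with a score of 15.2. The STAT5A scores were 154.2 at the lost and 77.8 at the kept site. On chromosome 13 the lost site from 51953910 to 51954161 scored 46.1, and the kept peak from 51944756 to 51945007 scored 22.4, with a Stat5a-null score of 12.4. On chromosome 1 the lost site from 164218986 to 164219237 scored 40.6, and the kept peak from 164224670 to 164224921 scored 22.9 and 14.3. On chromosome 11 the lost site from 109628143 to 109628394 scored 33.4, and the kept peak from 109620103 to 109620354 scored 18.6 and 12. These 3 pairs lay between 5684 bp and 9154 bp apart. By the way the pairs were chosen, the stronger wild type site of each was the one without a called peak. The chromosome 11 lost site also had a stronger neighbour, 5542 bp away. That neighbour scored 40.1 in wild type and was kept, with a Stat5a-null score of 33.9. The pairs described are the 4 with the highest score ratios, and this choice was made after the values were seen.

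**Figure D4:**
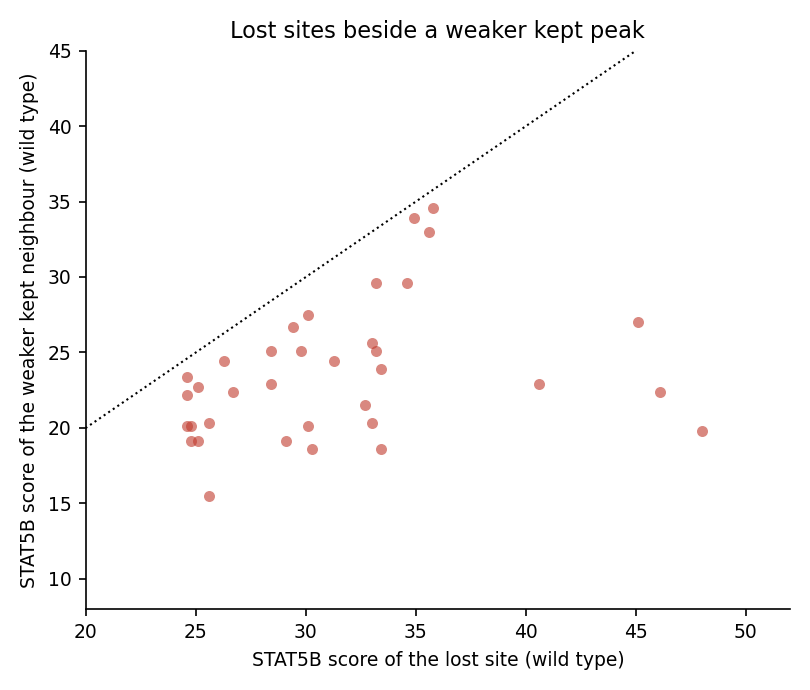
Wild type STAT5B score of 35 lost sites (horizontal axis) and of the weakest wild type STAT5B peak within 12500 bp that was kept and scored lower (vertical axis), in deposited units; the dotted line marks equal scores. The lost sites at 48.0, 46.1, 45.1 and 40.6 lie farthest from the line, with neighbours at 19.8, 22.4, 27 and 22.9.

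A few lost sites had a Stat5a-null peak very close by. A Stat5a-null peak had its centre within 1 kb of 9 lost sites, and at 7 of these it overlapped another wild type STAT5B peak. In the remaining pair of cases it matched neither a STAT5B nor a STAT5A peak of wild type tissue. One was chromosome 15 from 66876886 to 66877137 (STAT5B score 37.5), with a Stat5a-null peak from 66876508 to 66876765 that scored 18.1 and whose centre was 375 bp away. The other was chromosome 16 from 34323608 to 34323859 (29.4), with a Stat5a-null peak from 34323996 to 34324253 that scored 12.6 at 391 bp. At both, STAT5B was called next to the wild type site and not on it. Of the 77 lost sites with a Stat5a-null peak within 12500 bp, that peak lay at another wild type STAT5B peak in 74. The matching share over all 2578 Stat5a-null peaks was not counted. Neither the 74 of 77 nor the 7 of 9 can therefore be read as particular to peaks beside lost sites.

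Lost sites were found on every autosome, and their share of the strong sites differed between chromosomes. It ran from 11.1% on chromosome 5 (11 of 99, 5.68% to 19.01%) to 34.7% on chromosome 13 (35 of 101, 25.5% to 44.8%), against 21.5% overall. Chromosome X had 5 strong sites at STAT5A peaks and none was lost, which at this number allows any share up to 52.2% by the exact interval. On all chromosomes except 13 together the share was 20.6% (18.7% to 22.7%), below the interval of chromosome 13. Chromosome 13 was singled out from 20 chromosomes after the values were seen.

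For STAT5B scores of 30 or more, 32.1% (17 of 53, 19.9% to 46.3%) were lost on chromosome 13 and 13.8% (131 of 952, 11.6% to 16.1%) elsewhere, and these intervals did not meet. These sites were not at like score, with median STAT5B scores of 34.6 on chromosome 13 and 37 elsewhere. Over all strong sites the medians were 30.3 and 31.8. Scores above 48.2, where no site was lost, were included. The part of the STAT5B score in this gap was not tested. Below 30 the shares were 37.5% (18 of 48, 23.95% to 52.6%) and 30.5% (27.003% to 34.1%), which overlap. The lost sites were spread along the chromosome, from 3.87 Mb to 118 Mb, and the closest 10 of them covered 15.1 Mb. Weaker STAT5B peaks at STAT5A peaks lacked a Stat5a-null peak at 83.3% (229 of 275, 78.3% to 87.5%) on chromosome 13. The other autosomes ran from 74.3% to 82.7%, and the interval of each overlapped that of chromosome 13. Chromosome X had 86.5% (64 of 74).

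**Figure D5:**
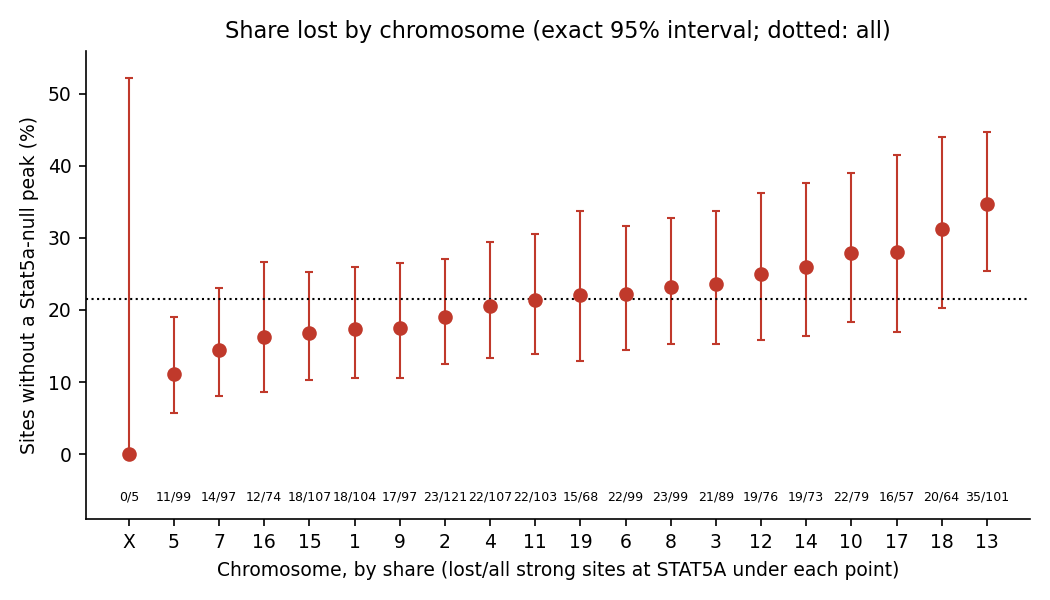
Share of strong STAT5B sites at STAT5A peaks without a Stat5a-null peak (vertical axis, percent) by chromosome (horizontal axis, ordered by share), with exact 95% intervals; lost sites over all sites stand under each point and the dotted line is the share over all chromosomes (21.5%). Chromosome 13 is highest at 34.7% and chromosome 5 the lowest autosome at 11.1%; their intervals are the only ones of autosomes that miss the dotted line.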

How the data were processed

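Chromatin immunoprecipitation libraries of mouse mammary tissue were analysed from the authors' peak lists, for 3 of 10 samples grouped by their titles. CASAVA, BWA and HOMER and the mm9 build are named, per the submitters' processing notes, with their versions and thresholds not given in the sources used here. A deposited peak list gives chromosome, start, end and 1 signal value per peak, called the score, whose scale is not stated. All scores of a list were multiples of 1 step (tolerance 0.05, steps from 0.155 to 0.40 searched), 0.172 for STAT5A, 0.239 for wild type and 0.210 for Stat5a-null STAT5B; tags per peak are the score divided by the step, and total reads are unknown. Scores were compared within a list; the ratio of STAT5A to STAT5B score divides values of separate lists and has no meaning as a level. Peak widths were 276, 252 and 258 bp. Starts are printed 1-based.

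Sites were selected by overlap of at least 1 bp; bedtools 2.31.1 gave the same 369, and all 100 lost sites planted among 450 simulated peaks were found. Distances are between centres. Shares have exact Clopper-Pearson intervals, and medians have exact intervals from order statistics. Kept sites were weighted in score bins of 2 units. Values were computed in Python 3.11.15 with scipy 1.17.1, pandas 2.3.3 and numpy 2.4.6, and plotted with matplotlib 3.10.9. The members, lists and comparisons were chosen with earlier results of these data known. Named are the 10 lost sites with the highest STAT5B scores, the 5 with the highest and the 5 with the lowest STAT5A scores, those next to the score limit and groups of 3 or more; sites beside weaker kept peaks or close to a Stat5a-null peak were added after the values were seen. The reference tables at hand are of another build (GRCm38), so the planned search for STAT elements, distances to transcription starts and gene lists (milk proteins, signalling, cell cycle, transcription factors, lipid synthesis, transport, other cell types) were not run, and no sequence is printed.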

Additional observations from a re-analysis of the deposited data

How the results depend on the processing

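No paired analysis was possible because each group has 1 library, and for the same reason no library could be left out. The search for STAT elements and the distances to transcription starts were not run, nor were their alternatives. Of 30 alternative values of 5 results, 23 stayed within the interval of the main value or within 1.5 times the count, 7 moved and none reversed. Only the difference in median STAT5A score has a sign that could reverse. The 23 include the values for chromosomes 1 to 19 and X only. That setting could not change the lost sites, since 0 of them lay on unplaced sequence. Requiring 50% of both peaks, centres within 100 bp, or no Stat5a-null peak within 500 bp (from edge to edge, not between centres) gave 380, 390 and 363 lost sites. A score limit of 30 gave 148 lost sites and a median STAT5A score of 128.8, by construction. Weighting the kept sites to the STAT5B scores of the lost sites moved the difference in median STAT5A score from -16.7 to -3.9. With nearby set to 5 kb and 50 kb, 9.756% and 38.21% of lost sites had a Stat5a-null peak nearby, and 42.82% and 89.97% had another STAT5A peak. The depth of the Stat5a-null library, which limits what could be called there, is unknown.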

Other observations

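Besides the 1719 strong STAT5B peaks at STAT5A peaks, 25 strong peaks overlapped no STAT5A peak, and 6 of these had no Stat5a-null peak. At 4 of the 6, a STAT5A peak and a Stat5a-null peak both had their centres between 259 bp and 603 bp away. The strongest of these 4 was chromosome 13 from 72775656 to 72775907 (mm9), with a STAT5B score of 35.3. Its nearest STAT5A peak scored 164.4 and its nearest Stat5a-null peak 36.8. The other two, on chromosome 19 from 61275535 to 61275786 (STAT5B score 59.7) and chromosome 16 from 11144102 to 11144353 (58.0), had their nearest STAT5A peaks 17.0 kb and 13.6 kb away.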
